A study of Rattus norvegicus with 12 samples.

Results

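The interleukin-1 family genes described here are the cytokine genes Il1a, Il1b, Il18 and Il33, the receptor antagonist gene Il1rn, the receptor genes Il1r1, Il1r2 and Il1rl1, and Casp1, which encodes the protease that activates 2 of the cytokines. They were chosen by gene symbol, and all 9 were measured, by 14 of the 31042 probe sets of the array, within 14217 genes in all. Lungs came from wild type male Sprague Dawley rats of 250 to 350 g, with 3 arrays in each of 4 groups. BD/SEW animals underwent brain death, by inflation of a 4 Fr. balloon catheter outside the dura, and received 0.1 mg/kg SEW-2871 intravenously 15 min later. BD animals underwent brain death alone, SEW animals received the same dose of SEW-2871 alone, and sham animals served as controls. SEW-2871 is an agonist of the sphingosine 1-phosphate receptor S1P1. The labels do not say whether SEW animals were operated on, so the injection and any missing sham operation cannot be told apart, and they do not number the animals, so the p-values rest on a spread between arrays that may be technical. The question behind the comparisons is how these genes respond in the lung to brain death, to the agonist alone, and to brain death when the agonist follows.

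Interleukin-1 alpha and interleukin-1 beta signal through the same receptor, IL-1R1, which recruits the adaptor MyD88 and IRAK kinases and switches on NF-kappaB target genes such as neutrophil-attracting chemokines. The system is restrained by an antagonist that occupies the receptor (Il1rn) and by a decoy receptor that does not signal (Il1r2), both made abundantly by neutrophils and macrophages. Interleukin-33 is an alarmin kept in the nuclei of barrier and stromal cells, in the mouse lung chiefly alveolar type 2 cells, and signals through ST2, the product of Il1rl1. Interleukin-1 beta and interleukin-18 are made as precursors that caspase-1 cleaves in the inflammasome, a step that transcript levels do not show.

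The promoters of 4 of the genes are shown because the results turn on them: Il1b and Il1rn varied together over the arrays, Il1a had another order of the groups, and Il1r1 is the receptor whose level changed. They are RefSeq sequences of build GRCr8, from 250 bases before to 50 bases after an annotated start, read 5′ to 3′ on the gene's strand. Capitals mark matches to 4 motifs searched on both strands, namely the NF-kappaB consensus (kappaB), the TATA box (TATAAA), the AP-1 motif (TGANTCA) and the C/EBP motif (TTNNGNAAT), where N is any base.
Il1b, chr3:137036532-137036831, minus strand: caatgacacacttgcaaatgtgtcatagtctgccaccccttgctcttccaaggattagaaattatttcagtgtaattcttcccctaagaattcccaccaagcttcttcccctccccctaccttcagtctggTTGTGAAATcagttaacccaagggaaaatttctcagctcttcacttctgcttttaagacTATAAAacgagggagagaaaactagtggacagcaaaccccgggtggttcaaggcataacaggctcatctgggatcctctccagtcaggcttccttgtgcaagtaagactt
Il1rn, chr3:27520072-27520371, plus strand: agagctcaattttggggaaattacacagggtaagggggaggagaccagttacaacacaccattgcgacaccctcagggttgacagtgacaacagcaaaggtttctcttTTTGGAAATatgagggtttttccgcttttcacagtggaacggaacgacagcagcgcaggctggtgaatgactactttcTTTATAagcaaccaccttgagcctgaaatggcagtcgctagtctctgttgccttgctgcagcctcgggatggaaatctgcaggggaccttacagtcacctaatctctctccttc
Il1a, chr3:136989968-136990267, minus strand: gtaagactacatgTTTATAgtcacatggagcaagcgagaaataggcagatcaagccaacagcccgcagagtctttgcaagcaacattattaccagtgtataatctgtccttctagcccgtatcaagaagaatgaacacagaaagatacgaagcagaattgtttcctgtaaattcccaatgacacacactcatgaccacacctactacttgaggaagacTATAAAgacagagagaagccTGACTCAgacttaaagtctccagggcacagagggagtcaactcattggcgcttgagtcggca
Il1r1, chr9:50034133-50034432, plus strand: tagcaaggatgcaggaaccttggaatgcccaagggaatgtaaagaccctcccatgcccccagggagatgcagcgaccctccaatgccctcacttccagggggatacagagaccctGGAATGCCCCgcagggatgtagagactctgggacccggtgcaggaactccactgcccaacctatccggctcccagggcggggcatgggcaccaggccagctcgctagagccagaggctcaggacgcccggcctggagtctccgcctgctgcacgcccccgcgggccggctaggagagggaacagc
The Il1b window held a C/EBP match 119 bases and a TATA match 60 bases before the start. The Il1rn window held the same pair of motifs, the C/EBP match 142 bases before the start and the TATA match, on the other strand, 64 bases before it. The pair was not particular to these genes. A window of Il33, not shown, held a C/EBP match on the other strand 241 bases and a TATA match 29 bases before the start. Il33 and Il1b had a correlation of -0.24 over the 12 arrays. The Il1a window held an AP-1 match 12 bases before the start and TATA matches 32 and, on the other strand, 237 bases before it. The Il1r1 window held a kappaB match on the other strand, 135 bases before the start, and was the only 1 of the 9 windows found for 8 of the genes to do so (Il33 has a window for each of 2 starts). Over those 9 windows, TATA was matched in 5, C/EBP in 4 and AP-1 in 2. Over all 33469 windows of the genome table the shares were 14.2% for TATA, 12.3% for C/EBP, 7.33% for AP-1 and 7.51% for kappaB. Over the 13242 of these windows that belong to genes on the array they were 8.46%, 7.72%, 5.6% and 9.67% in the same order. These matches describe the letters of the windows only, and the table may not hold every start of a gene.

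Lung markers were bright on every array: Sftpc, the surfactant protein C gene, lay between 14.32 and 14.67 and Scgb1a1, the club cell secretory protein gene, between 14.48 and 14.87. All values are deposited log2 values, so that 1 unit is a doubling. Several arrays stood apart from their groups. SEW replicate 2 had a mean over 5 measured heat shock genes, a list written after the data were seen, of 13.22, against 10.98 to 11.47 on all other arrays. The mean of 9 measured cardiac muscle markers was 6.30 to 9.16 in BD/SEW arrays, 6.46, 12.69 and 8.03 in BD arrays, 5.88 to 8.35 in SEW arrays and 10.51 to 11.82 in sham arrays. The mean of 7 adipose markers was 5.82 to 6.41 in BD/SEW arrays, 5.65, 8.62 and 5.78 in BD arrays, 5.77 to 6.11 in SEW arrays and 8.25 to 9.13 in sham arrays. BD replicate 2 and the sham arrays therefore carried more transcripts of both tissues, and their part in the comparisons with sham was not tested beyond the fit with the cardiac mean as a covariate. Array weights were lowest for SEW replicate 2 (0.32) and sham replicate 3 (0.25).

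Il1b, the gene of interleukin-1 beta, the main secreted ligand of the family, was highest in BD/SEW lungs, next in BD lungs, then in sham lungs and lowest in most SEW lungs. Its values were 13.71, 13.75 and 13.54 in BD/SEW lungs, 12.80, 12.80 and 12.76 in BD lungs, 9.47, 12.23 and 9.82 in SEW lungs, and 11.97, 11.78 and 11.46 in sham lungs. The BD/SEW, BD and sham groups did not overlap. SEW replicate 2 lay above all sham arrays while the other 2 SEW arrays lay below them, so that the SD was 0.11 in BD/SEW, 0.02 in BD, 1.50 in SEW and 0.26 in sham lungs (n = 3 each).

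Il1b rose in BD/SEW against SEW by 3.16 ± 0.53 (log2, SE), an 8.94-fold difference with a 95% interval of 4.03 to 19.8 and an adjusted p of 0.003 with limma. It was called in that comparison in 20 of 20 alternative fits, with adjusted p between 4.5e-07 and 0.03, and the difference was 16.2-fold without SEW replicate 2 (4.5e-07). The other differences did not pass with all arrays. They were 1.05 in BD against sham (interval -0.10 to 2.20, adjusted p = 0.51), 0.88 in BD/SEW against BD (interval -0.27 to 2.03, adjusted p = 0.92), 1.93 in BD/SEW against sham (interval 0.78 to 3.08, adjusted p = 0.077) and -1.23 in SEW against sham (interval -2.38 to -0.08, adjusted p = 0.17). The difference between the brain death effects with and without agonist was 2.11 ± 0.74 (adjusted p = 0.26).

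The spread behind these tests is shared by all 4 groups, and for Il1b it rested on SEW replicate 2. Without that array the standard error in BD against sham was 0.13 in place of 0.53, and Il1b rose 2.07-fold in BD against sham (adjusted p = 0.0058 with limma, 0.0058 to 0.69 over all alternatives) and 3.81-fold in BD/SEW against sham (0.00019, 0.00019 to 0.44). It fell 4.26-fold in SEW against sham (8.7e-05, 8.7e-05 to 0.54), and the effect of brain death was 2.97 ± 0.20 log2 units larger with the agonist than without it (7.4e-05, 7.4e-05 to 0.44). For the SEW group both values rest on replicates 1 and 3 alone, since the array left out was the SEW array above all sham arrays. In that fit 1.01% of all genes were called in BD against sham, 4.46% in BD/SEW against sham, 3.53% in SEW against sham and 1.65% in the interaction. Without SEW replicate 1, Il1b was also called in BD/SEW against sham (1.93, adjusted p = 0.049). In fits on the compared arrays alone, Il1b did not pass in BD against sham (1.05 ± 0.13, adjusted p = 0.061 with limma). Nor did it pass in SEW against sham (-1.23 ± 0.65, 0.35), whereas it passed in BD/SEW against sham (1.93 ± 0.14, 0.0018). The adjusted p for BD/SEW against BD was 0.11 without SEW replicate 2. A fit on the BD/SEW and BD arrays alone gave 0.88 ± 0.07 and 0.022, the lowest of a range of 0.022 to 1.0.

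**Figure D1:**
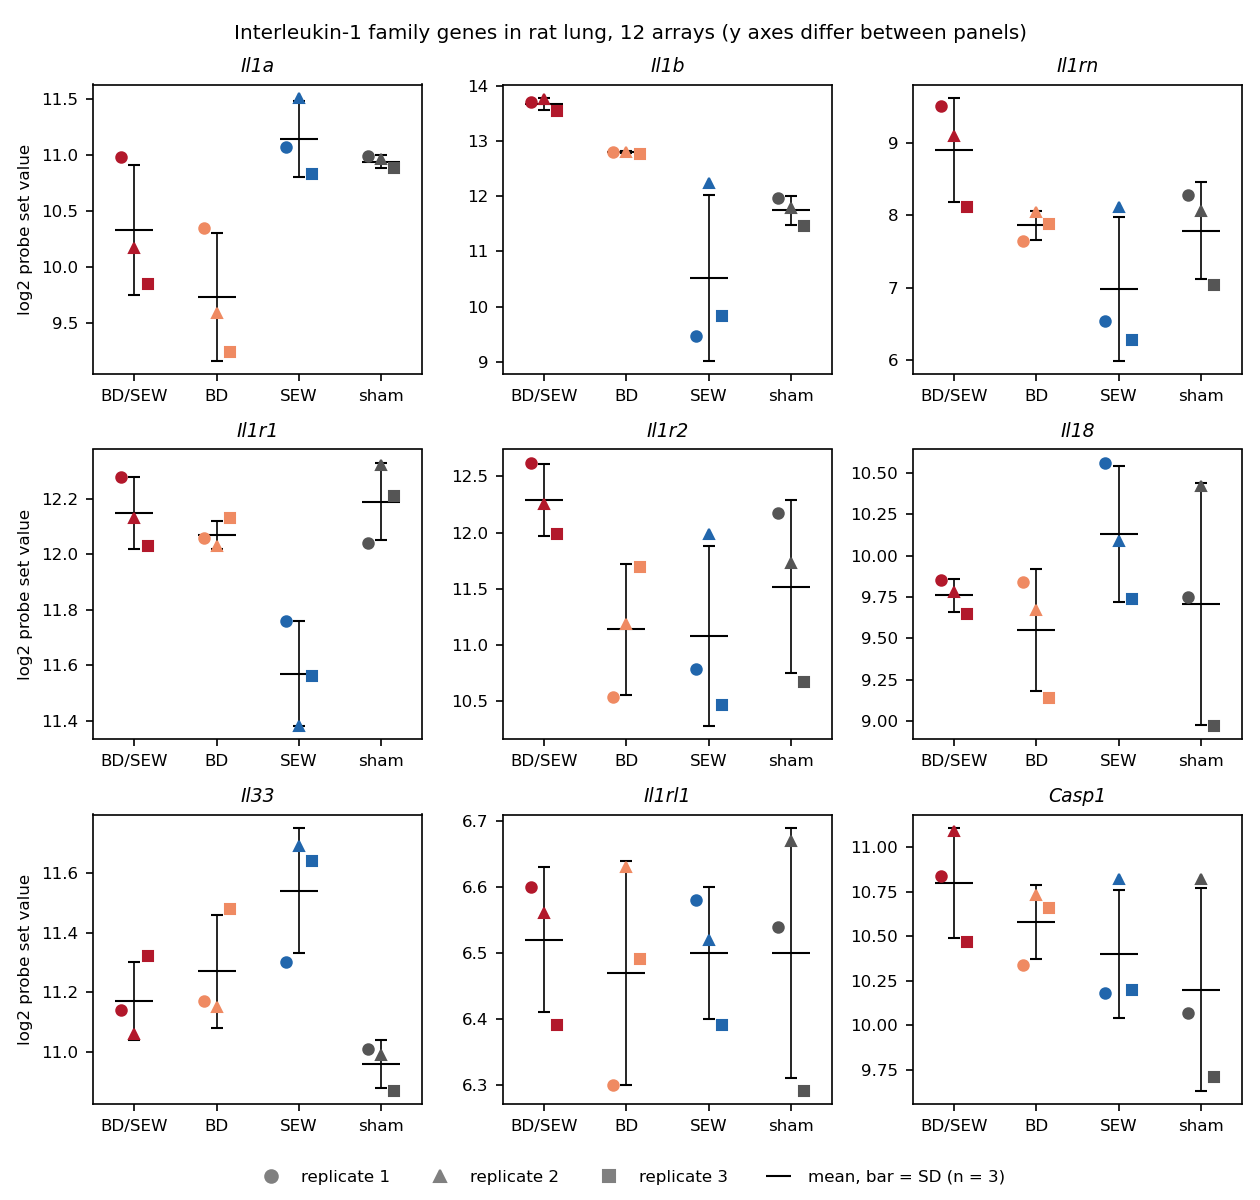
Deposited log2 probe set values (y axes, which differ between panels) of the 9 genes on each of the 12 arrays, by group (x axes), with 1 point per array, the group mean as a horizontal line and the SD as a bar. Il1b separates the BD/SEW, BD and sham groups, and SEW replicate 2 at 12.23 stands far above the other SEW arrays at 9.47 and 9.82.

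Il1a, the gene of interleukin-1 alpha, which is active without cleavage and is released by injured cells, did not follow Il1b. Its values were 10.98, 10.17 and 9.85 in BD/SEW lungs, 10.35, 9.59 and 9.24 in BD lungs, 11.07, 11.51 and 10.83 in SEW lungs, and 10.99, 10.96 and 10.88 in sham lungs. All BD arrays lay below all sham arrays, whereas BD/SEW arrays overlapped the sham arrays, and the SEW arrays lay around and above them. The difference in BD against sham was -1.22 ± 0.31 (2.32-fold lower, interval -1.90 to -0.54), with an adjusted p of 0.12 that did not pass, and 0.058 to 0.34 over the alternatives. It was -0.80 in BD/SEW against SEW (adjusted p = 0.13), which passed without BD/SEW replicate 1 (-1.13, adjusted p = 0.048, the lowest of a range of 0.048 to 0.40). For BD/SEW against BD it was 0.61 (interval -0.07 to 1.29, adjusted p = 0.92).

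The second probe set of Il1a had values of 9.41, 8.33 and 7.52 in BD/SEW lungs, 8.81, 8.19 and 6.95 in BD lungs, 9.57, 10.55 and 9.31 in SEW lungs, and 9.49, 9.40 and 7.62 in sham lungs. It gave the same order of the group means, with SEW highest and BD lowest, but BD and sham overlapped on it because sham replicate 3 was low (-0.85 in BD against sham, adjusted p = 0.69 over all probe sets).

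Il1rn, the antagonist gene, was at 9.52, 9.10 and 8.11 in BD/SEW lungs, 7.65, 8.05 and 7.88 in BD lungs, 6.54, 8.12 and 6.27 in SEW lungs, and 8.28, 8.06 and 7.03 in sham lungs. The BD/SEW arrays lay above all BD arrays, BD overlapped sham, and SEW replicate 2 again lay above its group, level with the lowest BD/SEW array. Il1rn rose in BD/SEW against SEW by 1.93 ± 0.49 (3.82-fold, adjusted p = 0.029 with limma). The call was lost without BD/SEW replicate 1 (1.63, adjusted p = 0.12), BD/SEW replicate 2 (1.84, 0.098), SEW replicate 1 (1.72, 0.082) or SEW replicate 3 (1.58, 0.10), and the difference was 2.50 without SEW replicate 2 (0.0041), in a range of 0.0008 to 0.12. The call was also lost on the BD/SEW and SEW arrays alone (1.93 ± 0.54, adjusted p = 0.076). The difference was 1.05 in BD/SEW against BD (interval -0.02 to 2.12, adjusted p = 0.91) and 0.07 in BD against sham (adjusted p = 0.98).

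Il1r2, the decoy receptor gene, had values of 12.62, 12.25 and 11.99 in BD/SEW lungs, 10.54, 11.19 and 11.69 in BD lungs, 10.79, 11.99 and 10.47 in SEW lungs, and 12.17, 11.73 and 10.67 in sham lungs. BD/SEW arrays were above all BD arrays touched the SEW group at 11.99 and overlapped sham, and BD, SEW and sham overlapped. It passed in no comparison. The difference was 1.15 ± 0.45 in BD/SEW against BD (interval 0.17 to 2.12, adjusted p = 0.90) and 1.20 ± 0.45 in BD/SEW against SEW (interval 0.23 to 2.18, adjusted p = 0.12). The difference from SEW passed without SEW replicate 2 (1.66, adjusted p = 0.034, in a range of 0.0063 to 0.31).

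Il1r1, the gene of the signalling receptor for both interleukin-1 cytokines, was lower in SEW lungs than in any other group. Its brightest probe set gave 12.28, 12.13 and 12.03 in BD/SEW lungs, 12.06, 12.03 and 12.13 in BD lungs, 11.76, 11.38 and 11.56 in SEW lungs, and 12.04, 12.32 and 12.21 in sham lungs. The SEW arrays lay below all other arrays, and the other 3 groups overlapped each other. Il1r1 fell in SEW against sham by 0.62 ± 0.11 (1.54-fold, adjusted p = 0.013 with limma) and rose in BD/SEW against SEW by 0.58 ± 0.11 (1.49-fold, adjusted p = 0.0069).

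The rise of Il1r1 in BD/SEW against SEW was called in 20 of 20 alternatives, and the fall in SEW against sham in 18 of 20. The exceptions were the fit on the SEW and sham arrays alone (adjusted p = 0.074) and the fit with the cardiac marker mean as a covariate (-0.74, adjusted p = 0.11). In BD against sham the difference was -0.12 (interval -0.36 to 0.13), and in the interaction 0.70 ± 0.16 (adjusted p = 0.07). The other 2 probe sets of Il1r1 did not show the low SEW level. Their differences in SEW against sham were 0.04 (adjusted p = 0.94) and -0.02 (adjusted p = 0.97) over all probe sets. Both averaged 6.07 and 5.90 over the arrays, and each lay under the array's lower quartile of 5.56 to 5.66 on 1 array, so they were dim, and signal over background was not measured.

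Il33, the alarmin gene, moved in SEW lungs in the direction opposite to Il1r1. Its brightest probe set gave 11.14, 11.06 and 11.32 in BD/SEW lungs, 11.17, 11.15 and 11.48 in BD lungs, 11.30, 11.69 and 11.64 in SEW lungs, and 11.01, 10.99 and 10.87 in sham lungs. All arrays of the other groups lay above all sham arrays, and SEW overlapped BD and BD/SEW through SEW replicate 1. Il33 rose in SEW against sham by 0.59 ± 0.13 (1.50-fold, adjusted p = 0.026 with limma).

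That call was lost without SEW replicate 2 (0.51, adjusted p = 0.066), SEW replicate 3 (0.54, 0.065), sham replicate 1 (0.61, 0.054), sham replicate 2 (0.60, 0.057) or sham replicate 3 (0.54, 0.073), in a range of 0.011 to 0.22 over all alternatives. It was also lost on the SEW and sham arrays alone (0.59, adjusted p = 0.087), with the cardiac covariate (0.65, 0.22) and with BD 2, SEW 2 and sham 3 left out together (0.47, 0.096). The second probe set of Il33 gave 9.92, 9.75 and 9.96 in BD/SEW lungs, 10.00, 10.02 and 9.98 in BD lungs, 10.40, 11.20 and 10.63 in SEW lungs, and 9.83, 9.85 and 9.36 in sham lungs. On it the SEW arrays lay above all other arrays, with a rise of 1.06 ± 0.19 in SEW against sham (adjusted p = 0.018 over all probe sets with limma) and a fall of 0.87 in BD/SEW against SEW (adjusted p = 0.018). On the first probe set BD/SEW against SEW gave -0.37 (adjusted p = 0.094), which passed without SEW replicate 1 (-0.49, adjusted p = 0.031, in a range of 0.017 to 0.27). The mean of 6 alveolar type 2 markers, the cells named above as a source of Il33, was 13.08 to 13.13 in BD/SEW, 12.94 to 13.10 in BD, 13.07 to 13.31 in SEW and 12.74 to 12.97 in sham arrays. Those markers were thus also higher in every SEW array than in every sham array, by a median of 0.33 with none called, and their part in the Il33 difference was not tested.

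**Figure D2:**
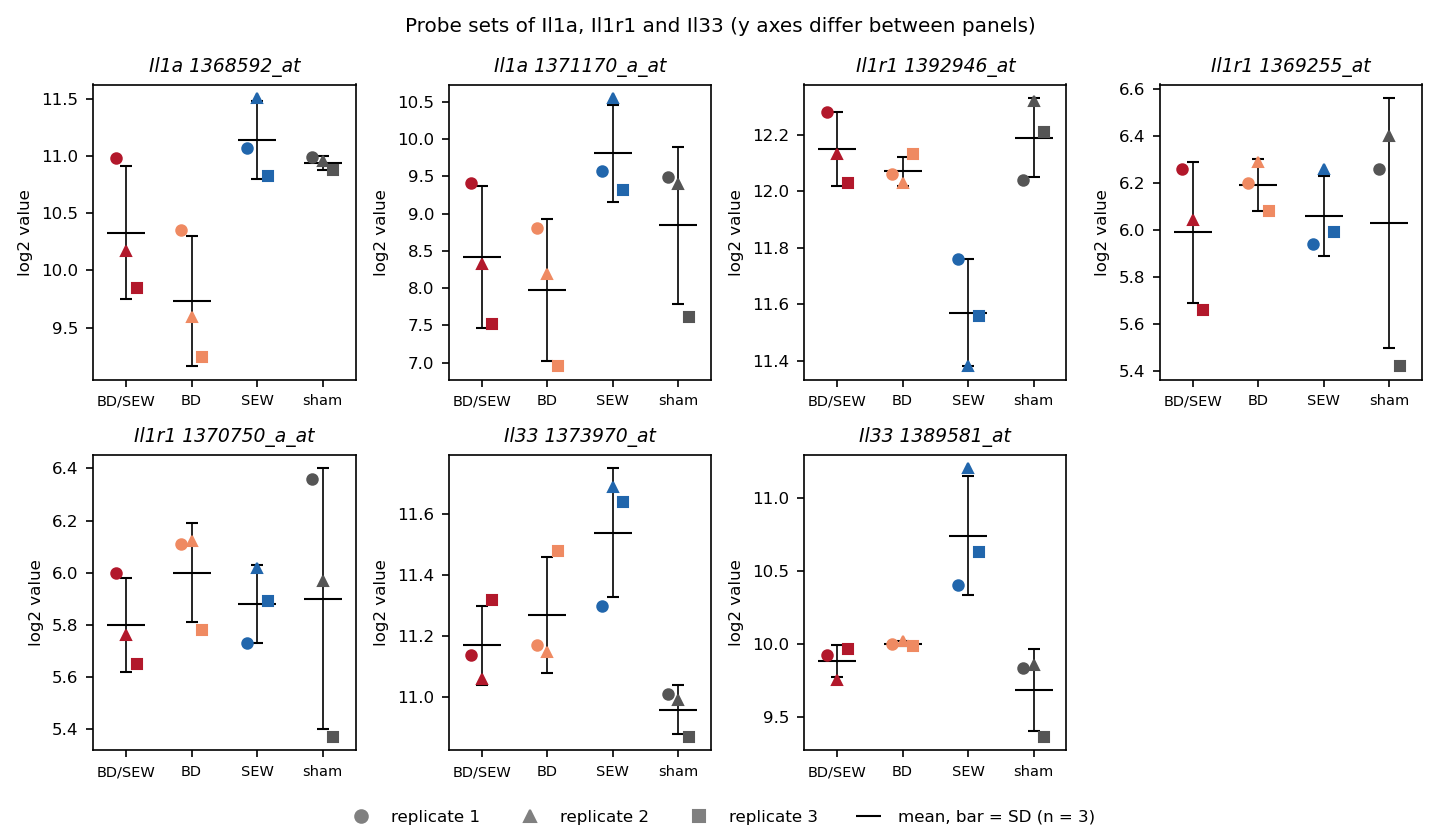
Log2 values (y axes, which differ between panels) of each probe set of Il1a, Il1r1 and Il33 on the 12 arrays, by group (x axes), with group means and SD (n = 3). Both Il33 probe sets are highest in SEW lungs, whereas the low SEW level of Il1r1 appears on the probe set averaging 11.57 there and not on the dim probe sets.

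Il1rl1, the receptor gene for interleukin-33, ranged from 6.30 to 6.63 over BD/SEW, BD and SEW arrays and from 6.29 to 6.67 in sham arrays, with group means within 0.04 of each other. Its second probe set lay below the lower quartile on 10 arrays. It passed in no comparison, and the interval in SEW against sham was -0.27 to 0.27.

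Il18, the other caspase-1 substrate among the cytokines, had values of 9.85, 9.78 and 9.65 in BD/SEW lungs, 9.84, 9.67 and 9.14 in BD lungs, 10.56, 10.09 and 9.74 in SEW lungs, and 9.75, 10.42 and 8.97 in sham lungs. All groups overlapped, and no comparison passed. Casp1 had values of 10.84, 11.09 and 10.47 in BD/SEW lungs, 10.34, 10.73 and 10.66 in BD lungs, 10.18, 10.82 and 10.20 in SEW lungs, and 10.07, 10.82 and 9.71 in sham lungs. All groups overlapped here too. The difference for Casp1 that lay farthest from 0 was 0.60 in BD/SEW against sham (interval 0.00 to 1.20, adjusted p = 0.28).

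Counted over the 9 genes, none passed in BD against sham with limma, where 0.591% of all genes were called. At an unadjusted p under 0.05 there were 2 (Il1a and Il33), among 1566 of all genes. In SEW against sham 1 rose (Il33) and 1 fell (Il1r1), with 5.84% of all genes called (3.4% higher and 2.43% lower). None passed in BD/SEW against BD (0.0141% of all genes called, with 1 of the 9 and 773 genes in all at an unadjusted p under 0.05). Between BD/SEW and SEW 3 rose (Il1b, Il1rn and Il1r1), with 9.79% of all genes called (4.75% higher and 5.04% lower), and 4 of the 9 passed without SEW replicate 2, with 8.4% of all genes called. None passed between BD/SEW and sham (2.87% of all genes called, 1.7% higher and 1.17% lower, with 3 of the 9 and 2495 genes at an unadjusted p under 0.05). None passed in the interaction (0.95% of all genes called, with 5 of the 9 and 1771 genes at an unadjusted p under 0.05).

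The arrays of the groups did not overlap for 3 of the 9 genes in BD against sham (Il1a, Il1b and Il33, 15.7% of all genes). They did not overlap for 2 in SEW against sham (Il1r1 and Il33, 27.1%), for 3 in BD/SEW against BD (Il1b, Il1rn and Il1r2, 12.4%), for 2 in BD/SEW against SEW (Il1b and Il1r1, 31.8%) and for 2 in BD/SEW against sham (Il1b and Il33, 25.9%). The median difference over the 9 genes was 0.22 for BD/SEW against BD, 0.40 for BD/SEW against SEW, 0.22 for BD/SEW against sham, -0.03 for BD against sham and -0.00 for SEW against sham. The median over all genes lay between -0.01 and 0.02 in these comparisons, some of which share the same arrays.

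**Figure D3:**
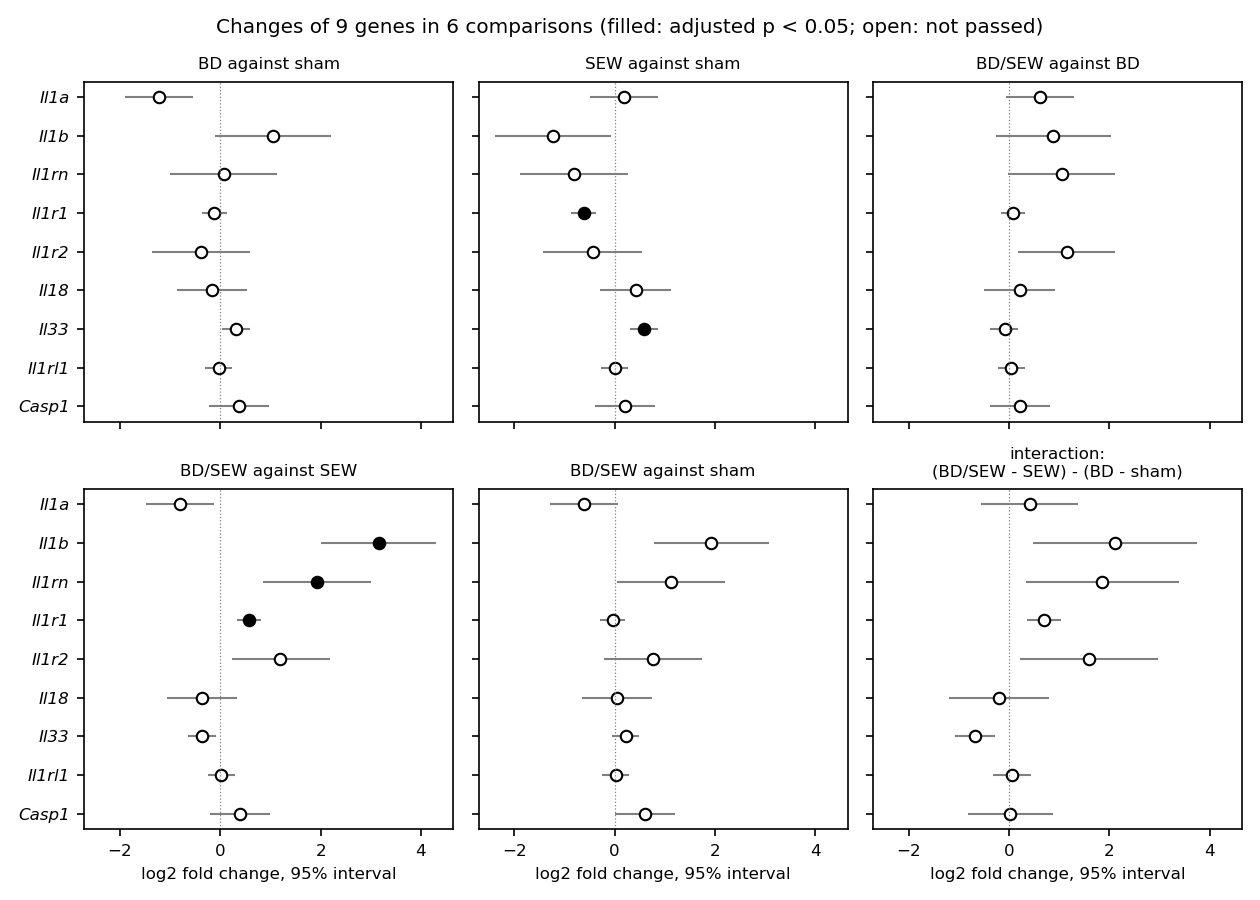
Log2 fold changes of the 9 genes (points) with 95% intervals (lines) in 6 comparisons, on 1 common x axis, with filled points for an adjusted p under 0.05. The filled points are Il1r1 and Il33 in SEW against sham and Il1b, Il1rn and Il1r1 in BD/SEW against SEW, and the Il1b interval spans 2.01 to 4.31 in BD/SEW against SEW.

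Of 16 listed genes that interleukin-1 is known to induce, all measured, 9 fell in SEW against sham and 11 rose in BD/SEW against SEW, with medians of -2.01 and 2.01. Over all genes 2.43% were called lower in the first comparison and 4.75% higher in the second. In BD/SEW against sham 1 rose, 1 fell and 14 did not pass, where 1.7% of all genes were called higher and 1.17% lower, and the median was 0.58. The number of calls in SEW against sham depended on the fit. Over all 43 measured pathway genes 12 fell there, of which 9 are these. With the cardiac marker mean as a covariate 3 calls were left, and 7 on the SEW and sham arrays alone. Of all 14217 genes 484 were called higher and 346 lower there. With the covariate 0 and 25 were called, and 47 and 210 on those arrays alone. In BD/SEW against SEW the pathway calls numbered 18, and 18 with the covariate and 20 on the arrays of those groups alone. Over all genes 676 were called higher and 716 lower in that comparison. The covariate gave 649 and 612, and the arrays of those groups alone 610 and 545. In BD against sham 1 fell, where 0.38% of all genes were called lower, and the median was -0.07. In BD/SEW against BD none passed with limma, 8 of the 16 and 773 of all genes had an unadjusted p under 0.05, and the median was 0.64. The list is not specific to interleukin-1, since tumour necrosis factor and Toll-like receptors induce the same genes.

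Zc3h12a, which encodes the RNase Regnase-1 that degrades cytokine transcripts, was at 11.19, 10.79 and 10.51 in BD/SEW lungs, 10.45, 10.21 and 10.28 in BD lungs, 7.37, 7.84 and 6.62 in SEW lungs, and 9.98, 9.51 and 9.79 in sham lungs. No group overlapped another. It fell by 2.48 ± 0.27 in SEW against sham (adjusted p = 0.0014 with limma) and rose by 3.55 ± 0.27 in BD/SEW against SEW (3.1e-05). Il6, the acute phase cytokine gene, was at 10.04, 9.57 and 8.57 in BD/SEW lungs, 6.66, 7.91 and 7.41 in BD lungs, 4.57, 7.28 and 4.57 in SEW lungs, and 8.23, 7.99 and 10.04 in sham lungs. SEW replicate 2 was the high SEW array here as for Il1b, and the other 2 SEW values lay under the lower quartile, so the size of the fall in SEW against sham (3.28 ± 0.74 on the log2 scale, adjusted p = 0.03) is uncertain. Unlike Il1b, Il6 was lower in BD than in sham on every array, by -1.43, which did not pass (adjusted p = 0.53).

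Ccl2, the monocyte-attracting chemokine gene, was at 12.33, 11.44 and 10.44 in BD/SEW lungs against 5.49, 7.27 and 5.47 in SEW lungs, and rose by 5.33 ± 0.70 (40.1-fold, adjusted p = 0.00086), although 2 of the SEW values lay under the lower quartile and the size is uncertain. The neutrophil chemokine genes Cxcl1 and Cxcl2 rose 8.59-fold (adjusted p = 0.00043) and 9.71-fold (0.007) in the same comparison. In SEW against sham Cxcl2 fell by 2.72 (adjusted p = 0.033), Csf3, the granulocyte colony-stimulating factor gene, fell by 2.49 (0.0035), and Ccl20, a chemokine gene for CCR6-bearing cells, fell by 3.53 (0.02), all on the log2 scale. Csf3 also fell by 1.74 ± 0.32 in BD against sham (adjusted p = 0.037), where 0.211% of all genes were called higher and 0.38% lower. No pathway gene, Csf3 included, was called in BD against sham without sham replicate 2, BD replicate 1, BD replicate 3, SEW replicate 3 or replicate 2 of BD/SEW, a count of 0. Over all genes 30 were called higher and 54 lower there in the main fit. In the same order those fits gave 23 and 26, 4 and 22, 7 and 30, 17 and 36, and 9 and 25. Ccl20 was at 7.62, 6.96 and 7.27 in BD/SEW lungs, 6.80, 10.44 and 7.52 in BD lungs, 6.35, 7.52 and 7.38 in SEW lungs, and 10.61, 10.49 and 10.73 in sham lungs. It was thus high on the 4 arrays that carried the most cardiac and adipose transcripts, and their part in its fall in SEW against sham and in BD/SEW against sham, where it fell by 3.33 (adjusted p = 0.033), was not tested for this gene. Icam1, the endothelial adhesion molecule gene, rose in BD/SEW against sham by 0.95 ± 0.18 (adjusted p = 0.021).

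**Figure D4:**
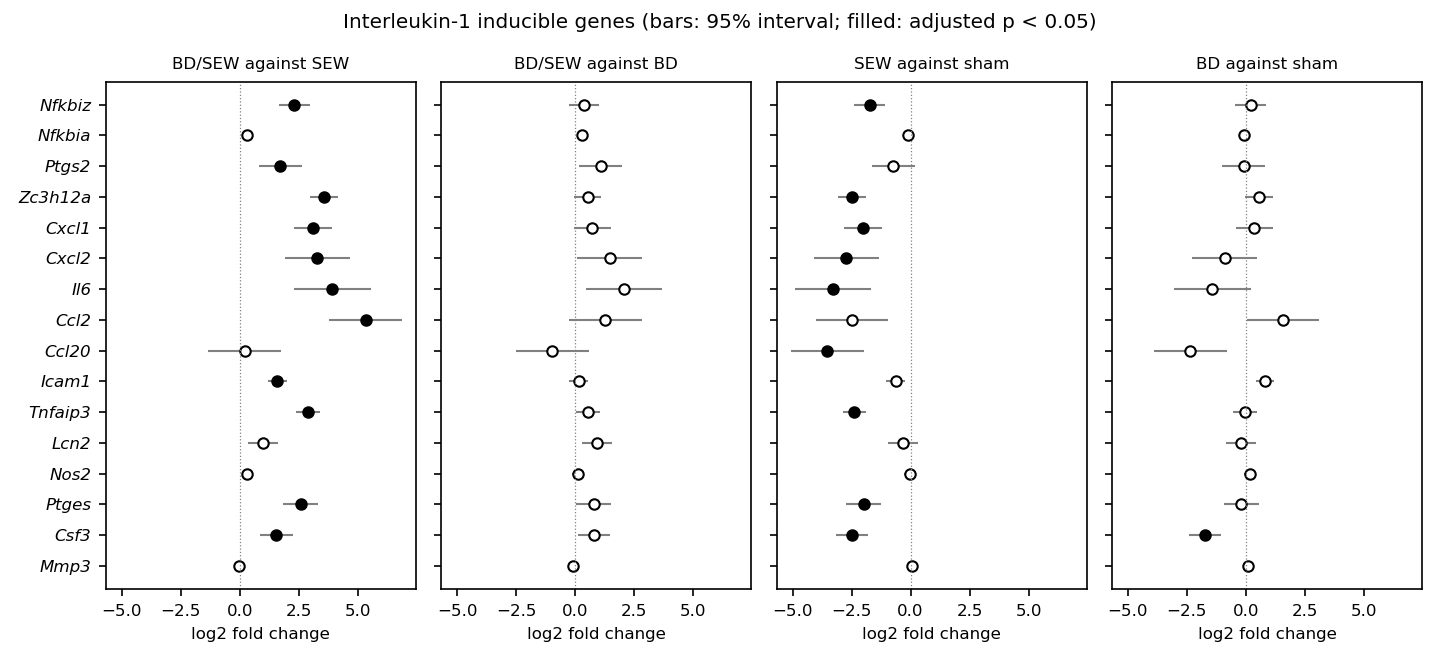
Log2 fold changes (points) with 95% intervals (lines) of 16 genes that interleukin-1 induces, in 4 comparisons on 1 common x axis, filled where the adjusted p is under 0.05. There are 11 filled points on the right of 0 in BD/SEW against SEW and 9 on the left in SEW against sham.

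Of the other genes of the pathway, 14 of 15 listed for receptor signalling were measured, 3 fell in SEW against sham and 4 rose in BD/SEW against SEW. Over all genes 2.43% were called lower in the first comparison and 4.75% higher in the second. The following were named after their values were seen. Irak3, whose product IRAK-M restrains the receptor complex, was at 10.28, 10.36 and 10.12 in BD/SEW lungs, 10.00, 10.14 and 9.79 in BD lungs, 8.04, 8.82 and 8.22 in SEW lungs, and 10.29, 10.14 and 9.61 in sham lungs. The SEW arrays were apart from all others, and Irak3 fell by 1.65 ± 0.21 in SEW against sham (adjusted p = 0.0035) and rose by 1.89 ± 0.21 in BD/SEW against SEW (0.00035). The adaptor gene Myd88 fell by 0.49 (adjusted p = 0.041) and the ubiquitin ligase gene Traf6 by 0.48 (0.039) in SEW against sham, and they rose by 0.81 (0.0017) and 0.58 (0.0088) in BD/SEW against SEW. Peli1, another ubiquitin ligase gene of the pathway, rose by 0.75 there (0.0016).

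Among 7 measured of 14 inflammasome and processing genes, Casp4 (1.21, adjusted p = 0.019) and the pyrin gene Mefv (0.95, 0.0041) rose in BD/SEW against SEW, both named after their values were seen. Txnip, whose product binds thioredoxin and NLRP3, fell by 0.86 in BD/SEW against SEW (adjusted p = 0.0011) and fell by 0.61 in BD/SEW against sham (0.023). Over all genes 4.75% were called higher and 5.04% lower in the first comparison, and 1.7% and 1.17% in the second. None of the 3 measured further ligand and binding protein genes and none of the 3 measured further receptor chains passed in these comparisons. In the interaction 9 of the 43 measured pathway genes rose, with 0.851% of all genes called higher and 0.0985% lower there. They included Il6 (5.35 ± 1.05, adjusted p = 0.039), Csf3 (3.28 ± 0.45, 0.0078), Zc3h12a (3.0 ± 0.38, 0.0056), Tnfaip3, the gene of the NF-kappaB inhibitor A20 (2.93 ± 0.32, 0.0029), and Ptges, a prostaglandin E synthase gene (2.77 ± 0.48, 0.024). Ptges was at 5.64, 5.67 and 5.34 in SEW lungs, near the arrays' lower quartile of 5.56 to 5.66. Il6 was at 4.57, under it, on SEW replicates 1 and 3, so the sizes for both genes are uncertain. The count of 9 depended on single arrays. It was 12 without SEW replicate 2, 3 without replicate 1 or 2 of BD/SEW, 4 without sham replicate 2, sham replicate 3, BD replicate 1, SEW replicate 1 or SEW replicate 3, 5 without sham replicate 1, and 6 without BD replicate 3 or BD/SEW replicate 3. Over all genes the interaction calls, 121 higher and 14 lower in the main fit, moved too. They were 214 and 21 without SEW replicate 2, and 44 and 0 or 38 and 0 without replicate 1 or 2 of BD/SEW. The 3 calls in BD/SEW against sham became 0 without sham replicate 1 or without replicate 1 or 2 of BD/SEW, 1 without sham replicate 2, and 6 without SEW replicate 2. Over all genes 242 were called higher and 166 lower in that comparison. The first 3 of those fits gave 85 and 56, 75 and 45, and 57 and 34. The last 2 gave 146 and 69, and 382 and 252.

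Markers of neutrophils, which make Il1b, Il1rn and Il1r2, moved with these genes. The mean of the 7 measured of 10 neutrophil markers was 11.68, 11.31 and 11.30 in BD/SEW arrays, 10.44, 10.41 and 11.04 in BD arrays, 8.55, 10.56 and 8.94 in SEW arrays, and 10.81, 10.37 and 9.77 in sham arrays. Of these markers 4 rose in BD/SEW against SEW and 2 fell in SEW against sham, and their medians were 1.62 and -0.58. Over all genes 4.75% were called higher in the first comparison and 2.43% lower in the second. The defining calprotectin genes S100a8 and S100a9 were bright throughout, at 11.69 to 13.98 and 12.54 to 14.27. The other measured neutrophil markers were dimmer, with lowest array values from 6.23 for Mmp8 to 7.68 for Csf3r. SEW replicate 2 was thus high in neutrophil markers as well as in Il1b, Il1rn and Il1r2. In BD against sham, where the neutrophil means overlapped, Il1b did not. The mean of the 9 measured monocyte and macrophage markers was 9.25 to 9.70 in BD/SEW, 9.16 to 9.27 in BD, 8.91 to 9.67 in SEW and 8.79 to 9.48 in sham arrays. In BD/SEW against SEW 1 of these markers was called, with 9.79% of all genes. SEW replicate 2 also had the highest SEW value of this mean, 9.67 against 9.10 and 8.91 on replicates 1 and 3. The mean of 8 T and NK cell markers was 8.05 on SEW replicate 2, against 7.78 and 7.52 on replicates 1 and 3. All 5 measured of 6 platelet markers rose in BD/SEW against SEW, where 4.75% of all genes were called higher. Their mean was 8.43 to 9.37 in BD/SEW, 8.08 to 8.22 in BD, 7.14 to 7.77 in SEW and 7.53 to 8.17 in sham arrays. The lowest of these, 7.14, was SEW replicate 2. The mean of 10 basophil and mast cell markers was 6.77 to 6.86 in BD/SEW, 6.45 to 6.64 in BD, 6.46 to 6.61 in SEW and 6.60 to 6.66 in sham arrays, so that all BD/SEW arrays lay above all others. Of these markers 3 rose and 1 fell in BD/SEW against SEW, where 4.75% of all genes were called higher and 5.04% lower. In BD/SEW against BD 2 of them rose, where 2 genes in all were called. The list was chosen with earlier results of these data known, so this overlap is not evidence of enrichment. The part of these cells in the cytokine differences was not tested, and in bulk lung more cells of a type and more RNA per cell cannot be told apart.

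**Figure D5:**
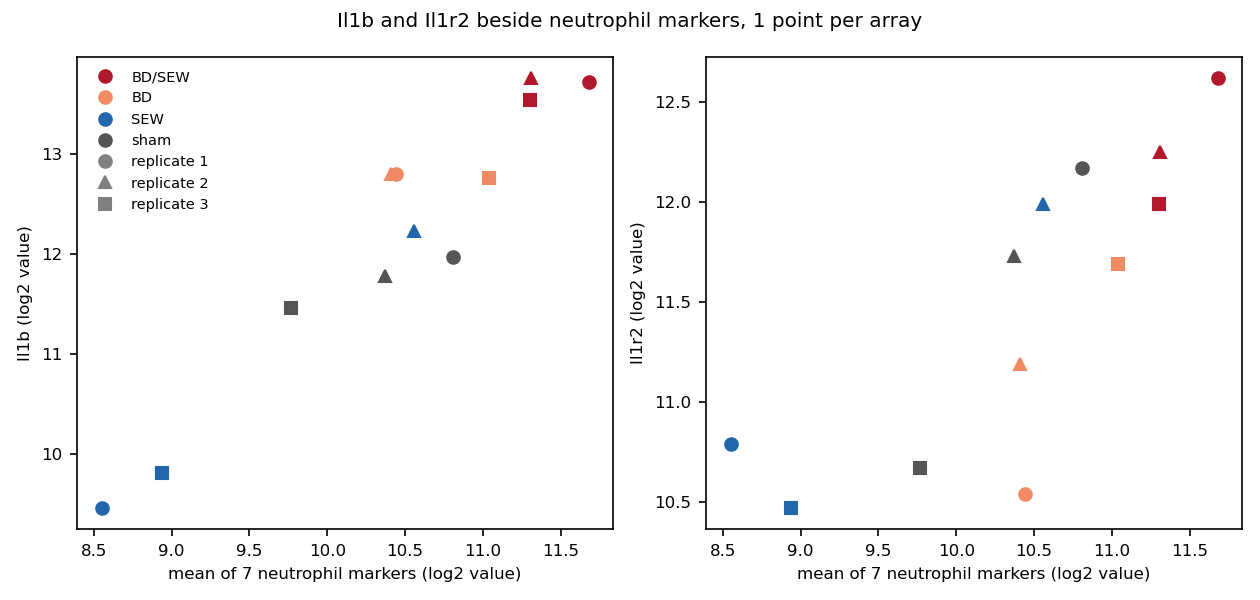
Log2 values of Il1b (left) and Il1r2 (right) on the y axes against the mean log2 value of 7 neutrophil markers on the x axes, with 1 point per array coloured by group. The BD/SEW arrays lie farthest right in both panels and highest for Il1b, SEW replicates 1 and 3 lie farthest left, and SEW replicate 2 among the sham and BD arrays.

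Over the 12 arrays, Il1b and Il1rn had a correlation of 0.88, and Il1rn and Il1r2 of 0.88. After the group means were taken off, these values were 0.78 and 0.87. Il1r1 and Il33 had a correlation of -0.81, and -0.47 after the group means were taken off, and Il1a and Il1b had one of -0.46, and 0.39 after the group means were taken off. The genes with a profile most like Il1b among the 10661 genes compared were Tlr2, a receptor gene for bacterial lipopeptides, Ripor2 and Ltb, the lymphotoxin beta gene, with a Pearson correlation of 0.97 each over the 12 arrays. Tlr2 averaged 10.68 ± 0.06 in BD/SEW lungs, 9.80 ± 0.40 in BD lungs, 8.49 ± 0.95 in SEW lungs and 9.40 ± 0.19 in sham lungs (SD, n = 3 each). For Il33 the nearest were Tmem80 (0.94), Casz1 (0.90) and Armcx1 (0.89). The arrays share groups and any differences in tissue composition, so these values describe likeness only.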

How the data were processed

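The deposited values are on a log2 scale, to 2 decimals. Per the submitters' processing notes the tools were RMA, MAS5 and affy, with neither versions nor roles given, and the genome build is not given in the sources used here. Array medians lay between 7.34 and 7.41, and the arrays differed by at most 0.22 at any rank. Symbols came from the array's annotation: 20826 probe sets had 1 symbol, 436 had several and 9780 had none. Each gene was represented by the probe set with the highest mean. Groups were compared with limma 3.58.1 (R 4.3.3), with variances moderated along a mean trend, over all 12 arrays, and called at a Benjamini-Hochberg adjusted p under 0.05 over 14217 genes, two-sided. The interaction is (BD/SEW minus SEW) minus (BD minus sham). The fit was tested on simulated data with normal values, the same spread in all groups and changes in BD only. That test does not cover an unequal spread between groups such as that of Il1b. The number of arrays limits the precision. Of the pathway genes, up to 5 called genes per comparison with the largest change were named by rule, together with the 3 genes most like Il1b and Il33. All lists, rules and members were chosen with earlier results of these data known. Alternative fits used the compared arrays only, a replicate block, array weights, every probe set, dim genes (under the 25th percentile) left out, median centring, a cardiac marker covariate, and arrays left out singly or BD 2, SEW 2 and sham 3 together.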

Additional observations from a re-analysis of the deposited data

How the results depend on the processing

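Of the 9 genes, the number called in BD against sham was 0, and 1 with BD 2, SEW 2 and sham 3 left out together, with 0 to 1 over the 12 fits that leave out 1 array. In SEW against sham it was 2, with 0 on the compared arrays only, 4 with array weights, 0 with the cardiac covariate and 1 to 2 with 1 array left out. The 3 arrays left out together gave 3. In BD/SEW against BD it was 0, and 1 on the compared arrays only. In BD/SEW against SEW it was 3, with 5 under array weights and 2 to 4 with 1 array left out. In BD/SEW against sham it was 0, and 1 on the compared arrays only, with array weights or with the 3 arrays left out, and 0 to 1 with 1 array left out. In the interaction it was 0, with 5 under array weights, 3 with the 3 arrays left out and 0 to 1 with 1 array left out. Calls over all genes, higher then lower, also moved with the fit. In SEW against sham they numbered 484 and 346 in the main fit, and 47 and 210 on the compared arrays. Array weights gave 902 and 654 there, the cardiac covariate 0 and 25, and the 3 arrays left out 407 and 504. In BD/SEW against SEW the calls went from 676 and 716 to 1117 and 1389 with array weights. In BD/SEW against sham the calls went from 242 and 166 to 341 and 344 on the compared arrays. Array weights gave 1550 and 1135 there, and the 3 arrays left out 613 and 547. In the interaction 121 and 14 became 371 and 93 with array weights, and 352 and 66 with the 3 arrays left out. In BD against sham 30 and 54 became 180 and 319 with the 3 arrays left out. The cause of these changes was not tested, except that the fits on compared arrays use fewer samples.

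Among same-numbered arrays of different groups, 8 of 18 pairs had a correlation of deviations above 0.1, in a range of -0.19 to 0.38. Differently numbered pairs ranged from -0.43 to 0.29, and a smaller share of them lay above 0.1. The labels do not say whether the numbers pair arrays, and this was not tested. With the replicate block, and the comparisons ordered as above, the called members numbered 0, 2, 0, 3, 0 and 0, and the called pathway genes 0, 13, 0, 20, 5 and 10. Without the block the pathway genes numbered 1, 12, 0, 18, 3 and 9. They numbered 0, 7, 0, 20 and 7 on the compared arrays only, and 3, 22, 0, 22, 15 and 17 with array weights. The cardiac covariate gave 0, 3, 0, 18, 0 and 5, and the 3 arrays left out gave 4, 15, 0, 21, 7 and 14. With the block, calls over all genes were 604 higher and 414 lower in SEW against sham. They were 725 and 779 in BD/SEW against SEW.

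Uncalled differences changed sign as follows. With array weights these were Il1rn in BD against sham (-0.28), Il18 (-0.03) and Casp1 (-0.13) in SEW against sham, Il18 (-0.24) and Il1rl1 (-0.05) in BD/SEW against sham, and Il18 in the interaction (0.22). With the 3 arrays left out they were Il1rn in BD against sham (-0.41), Il1a (-0.02) and Casp1 (-0.26) in SEW against sham, Il18 (-0.32) and Il1rl1 (-0.09) in BD/SEW against sham, and Il18 in the interaction (0.21). With the cardiac covariate they were Il1rl1 in BD against sham (0.02), Il1a (-0.28) and Il1rl1 (0.08) in SEW against sham, Il18 in BD/SEW against sham (-0.04), and Il1rl1 (-0.00) and Casp1 (-0.02) in the interaction. With 1 array left out, the ranges that crossed 0 for BD against sham were Il1rn -0.31 to 0.32, Il18 -0.53 to 0.19 and Il1rl1 -0.13 to 0.06. For SEW against sham they were Il1rl1 -0.11 to 0.08 and Casp1 -0.04 to 0.51. For BD/SEW against BD they were Il33 -0.17 to 0.01 and Il1rl1 -0.04 to 0.12. For BD/SEW against SEW it was Il1rl1 -0.03 to 0.08. In BD/SEW against sham they were Il1r1 -0.12 to 0.02, Il18 -0.32 to 0.40 and Il1rl1 -0.09 to 0.10, and in the interaction Il18 -0.56 to 0.16, Il1rl1 -0.04 to 0.15 and Casp1 -0.29 to 0.27. Dim probe sets limit what can be said of Il1rl1, which the filter on dim genes removes, and of the other Il1r1 probe sets.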
